A study of Homo sapiens with 12 samples.

Results

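The genes described here are 238 long intergenic non-protein-coding RNAs, the expressed members of the LINC series of human gene symbols. A row of the authors' table of estimated counts was taken when its symbol was LINC followed by 5 digits and when its mean over all 12 libraries was at least 1 CPM (count per 1000000 counts of the library). Such names made up 1865 of the 56609 symbols, of which 514 were at 0 in every library and 238 reached the mean of 1 CPM. The members were thus chosen by their measured mean level over all 4 groups, so that level is a description and not a finding, and the rule used no difference between groups. The members just inside the limit were LINC02251 at 1.00 CPM and LINC02333 at 1.01 CPM, and those just outside were LINC01055 at 0.993 CPM and LINC01671 at 0.983 CPM.

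The cells were A375, an established human melanoma line, either wild type or carrying a CRISPR/Cas9 knockout of MAPKAPK2, the kinase also called MK2. Each genotype received 500 nM JQ1 or DMSO, its solvent, for 48 h, in 3 libraries per group and 12 in all, made from total RNA depleted of ribosomal RNA. The titles call the libraries without drug untreated while the treatment field says DMSO, and the treatment field was followed. The labels do not say whether the knockout is 1 clone or a pool, nor whether replicates were separate cultures, so p-values measure only the spread between these libraries. The study asked how loss of MAPKAPK2 bears on resistance to BET inhibitors. JQ1 displaces the BET family of bromodomain proteins from acetylated histones, where they promote transcription by RNA polymerase II. MAPKAPK2 acts downstream of the stress kinase p38 and phosphorylates proteins that bind RNA and set the stability of transcripts.

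Long intergenic RNAs are transcribed by RNA polymerase II, are commonly capped, spliced and polyadenylated, and have no long reading frame. As a class they are present at lower levels and in fewer cell types than messenger RNAs. Some act on genes beside their own site of transcription, others act elsewhere in the cell, and for most no function is known.

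Library totals ran from 25316899 to 34594295 counts. From here on CPM is taken on library totals scaled by the trimmed mean of M-values (TMM), unless stated otherwise. MAPKAPK2 stood at 88.8, 87.9 and 92.1 CPM in the wild-type DMSO libraries, at 119, 119.7 and 112 CPM when JQ1 was added, at 11.1, 13.2 and 13.0 CPM in knockout cells with DMSO and at 14.9, 12.6 and 15.7 CPM in knockout cells with JQ1, in the direction of its labels. Among 10 melanoma and neural crest markers 8 passed the low-count filter, while TYR never exceeded 9 counts and DCT 13 counts. Their summed level was 912 to 938 CPM with DMSO and 1207 to 1354 CPM with JQ1 in wild type. In knockout it was 811 to 927 and 1116 to 1408 CPM. SOX10, AXL and PRAME, with means of 437, 248 and 170 CPM in wild-type DMSO, made up most of the sum. PMEL, MLANA and SOX9 passed the filter but reached at most 1.45, 1.02 and 0.965 CPM in any library. With JQ1 5 of the 8 were higher in wild type and 4 in knockout, and 0 were lower. Between knockout and wild type in DMSO, MITF (-0.58), AXL (-0.32) and SOX9 (-2.92) were called lower, S100B (0.45) higher and the rest not called. Under JQ1 MITF (-0.37) and SOX9 (-2.24) were called lower, S100B (0.41) higher and the rest not called. Of 12 markers of epithelial, immune, endothelial and fibroblast cells 6 passed the filter, with a summed level of 9.28 to 16.1 CPM, and CDH1 was at 0 in every library. In wild-type cells that sum was 14.6 to 16.1 CPM with DMSO and 12.5 to 14.9 CPM with JQ1, and in knockout cells 11.8 to 13.4 and 9.28 to 10.5 CPM. Its members moved in opposite directions with JQ1: LUM had log2 fold changes of -2.92 and -2.80 in wild type and knockout, KRT14 -1.32 and -2.53, and PDGFRA 0.64 and 0.61, all called, and DCN had -1.48, called, and -0.83, not called. The part of these markers in the results was not tested. Replicate 3 of knockout JQ1 stood apart from the others of its group, with a chi-square per degree of freedom of 27.9 and 29.5 against them, where all other pairs of replicates gave up to 8.04. In bulk RNA, fewer cells of a kind and less RNA per cell cannot be told apart.

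All 238 LINC RNAs passed the low-count filter that left 21698 genes for testing. The mean of 1 CPM that chose the members was taken before TMM scaling. Their mean levels were low, with a median of 2.73 CPM and quartiles of 1.62 and 5.67 CPM, while all tested genes had a median of 5.89 CPM. Only 33 reached 10 CPM and 11 reached 30 CPM. Together they held 0.141% to 0.168% of the counts of a library. The median coefficient of variation among the 3 replicates of a group was 9.52% to 14.4% for these RNAs, and 5.38% to 11.5% for the 15429 tested genes that reached 1 CPM.

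The share of counts was uneven. LINC01297, LINC01419 and LINC01029 had the highest mean CPM, at 143, 128 and 96.6 CPM, and held 15.1% of the summed CPM of the set in wild-type DMSO libraries. Per kilobase of the longest annotated transcript, the highest mean levels were those of LINC01419 at 84.4 CPM per kb, LINC01029 at 65.9, LINC01239 at 20.9 and LINC00221 at 18.5. LINC01297 has no such value because its symbol belongs to 2 gene models, on chromosomes 14 and 22, so its counts cannot be given 1 place.

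The annotation was checked against the name of the class. In GENCODE version 29 on GRCh38, 231 of the 238 had a single position, 196 of them with the type lincRNA, 13 with the type processed transcript and 11 with the type antisense. The longest annotated transcript had a median length of 2253 bases and ran from 409 to 21221 bases, and 19 genes had a single exon. The word intergenic did not hold for all: 36 overlapped a protein-coding gene, 17 on the same strand, 20 on the opposite strand and 1 of these on both. LINC00094 overlapped BRD3, the gene of a BET protein that JQ1 binds, on the opposite strand, and is itself annotated as protein coding under the name BRD3OS. Whether the counting used the strand is not given in the sources used here, so the values of overlapping pairs are uncertain. LINC01297, LINC00941, LINC01422 and LINC01481 each matched several gene models, and LINC00473, LINC00969 and LINC00976 matched none.

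JQ1 lowered more of these RNAs than it raised. In wild-type cells 85 of 238 passed an adjusted p of 0.05 (edgeR's quasi-likelihood test, Benjamini-Hochberg over all genes tested), 66 lower and 19 higher. The share called in either direction, 35.7%, lay near the 33.1% of all tested genes and below the 41.5% of the tested genes that reached 1 CPM on average. The split by direction was different from that of both comparison sets. Lower calls made up 27.7% of the LINC RNAs, 16.2% of all tested genes and 18.8% of those with at least 1 CPM. Higher calls made up 7.98%, 16.9% and 22.8%, by the same test. Neither set was matched to the LINC RNAs by level, so the part of their low level in this split was not tested. The median log2 fold change of the set was -0.23, while that of all tested genes was -0.03 and that of genes with at least 1 CPM was 0.01, and 171 of the 238 values were negative. Every JQ1 library lay below every DMSO library for 92 of the RNAs, or 38.7%, against 26% of all tested genes, and above for 26, or 10.9%, against 24.4%.

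The knockout cells gave similar counts. There 84 RNAs were called, 61 lower and 23 higher, or 35.3% against 34.4% of all tested genes and 43.7% of those with at least 1 CPM. Lower calls made up 25.6% of the LINC RNAs, 17.8% of all tested genes and 21.5% of genes with at least 1 CPM. Higher calls made up 9.66%, 16.7% and 22.2%. The median log2 fold change of the set was -0.20, that of all tested genes -0.00, and 169 of the 238 values were negative. Without replicate 3 of knockout JQ1 72 RNAs were called in knockout cells and 95 in wild-type cells. Without replicate 1 of wild-type JQ1 the wild-type calls were 43 lower and 21 higher, so that 67.2% of them were lower. Scaling by library totals alone moved the median of all tested genes to -0.16 in wild type and -0.12 in knockout, and gave 14 higher and 96 lower calls in wild type and 14 higher and 83 lower calls in knockout, so that lower calls made up 87.3% of calls where TMM gave 77.6%, and 85.6% where TMM gave 72.6%.

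**Figure D1:**
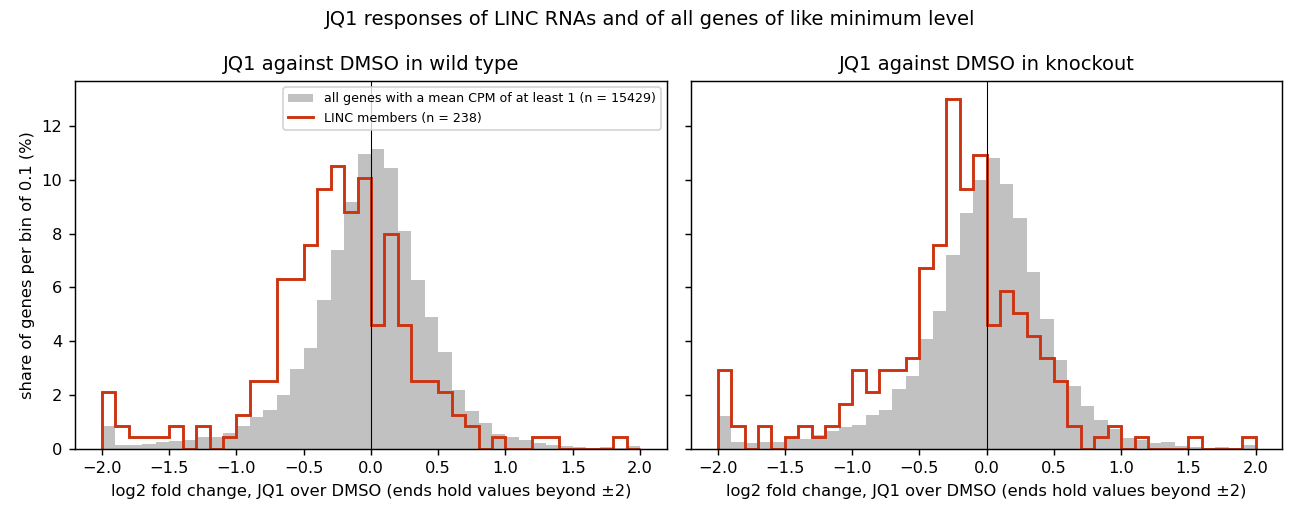
Distribution of the log2 fold change of JQ1 over DMSO (x axis, bins of 0.1) as a share of genes (y axis, percent) in wild-type and knockout cells, for the 238 LINC RNAs (red line) and the 15429 tested genes that reached 1 CPM (grey). The red line lies to the left of the grey area in both panels, with medians of -0.23 and -0.20 for the LINC RNAs against 0.01 and 0.01.

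In the plot of the distribution the whole set, and not its tail alone, lies to the left. Its quartiles in wild type were -0.50 and 0.06, and those of genes with at least 1 CPM were -0.25 and 0.25. In knockout they were -0.47 and 0.09, against -0.26 and 0.26. The summed level of the set without its 3 most counted members was 1298 ± 12.9 CPM with DMSO and 1179 ± 42.8 CPM with JQ1 in wild type, and 1285 ± 44.0 and 1157 ± 20.2 CPM in knockout (mean ± SD, n = 3). The median member stood at 3.08 and 2.48 CPM in wild type and at 2.85 and 2.33 CPM in knockout. With the 3 included the sums were 1530 ± 15.9 and 1628 ± 63.5 CPM in wild type and 1570 ± 47.1 and 1665 ± 135 CPM in knockout (mean ± SD, n = 3). Of the 3, LINC01419 rose in both genotypes, LINC01297 rose in knockout and LINC01029 fell in both. Every JQ1 sum lay above every DMSO sum in wild type, while in knockout the sums overlapped, with replicate 3 of JQ1 at 1519 CPM and replicates 1 and 2 of DMSO at 1597 CPM. By level, the 79 RNAs of lowest mean, up to 1.80 CPM, had 1 higher and 16 lower calls in wild type, the next 79 had 4 and 25, and the 80 of highest mean, from 4.49 CPM, had 14 and 25. In knockout cells the same classes had 1 and 19, 6 and 21, and 16 and 21. A mean of under 1 CPM in at least 1 group was found for 45 members, 15 of which were among the 66 lower calls in wild type and 20 among the 61 in knockout. Such members entered the set through the groups in which they were higher, so a difference in them was favoured by the rule. The 36 members that overlap a coding gene had medians of -0.23 in wild type and -0.17 in knockout, and the 195 that overlap none had -0.23 and -0.22.

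LINC00326 had the largest fall. The gene overlaps no coding gene (chr6:133088080-133106578, plus strand), and its RNA stood at 18.4, 17.0 and 18.7 CPM in the wild-type DMSO libraries and at 0.691, 0.705 and 0.740 CPM after JQ1. In knockout cells it stood at 29.2, 25.1 and 27.7 CPM in DMSO and at 1.41, 1.46 and 1.36 CPM in JQ1. No JQ1 library came near a DMSO library in either genotype. The log2 fold change was -4.65 (SE 0.12, adjusted p = 3.7e-12) in wild type and -4.28 (SE 0.11, adjusted p = 4.9e-12) in knockout. Its level was higher in the knockout in both treatments, by 0.60 (SE 0.08, adjusted p = 0.00026) in DMSO and by 0.98 (SE 0.16, adjusted p = 0.00097) in JQ1. No tested coding gene lay within 100 kb of it.

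LINC02251 (chr15:98003081-98087384, plus strand) was the member closest to the limit of the rule, with 1.28, 1.31 and 1.04 CPM in wild-type DMSO and 0.220, 0.0371 and 0.148 CPM in wild-type JQ1. The knockout libraries held 2.15, 2.51 and 2.39 CPM in DMSO and 0.0762, 0.325 and 0.222 CPM in JQ1. All JQ1 values were lower than all DMSO values, and the JQ1 values rest on few counts. LINC02251 reached the mean of 1 CPM through the DMSO libraries, so the rule favoured a difference in it. The log2 fold changes were -3.08 (SE 0.39, adjusted p = 2.9e-05) and -3.48 (SE 0.36, adjusted p = 3.1e-06). The nearest tested coding gene, ARRDC4, an arrestin-domain protein 29243 bases away on the same strand, did not pass the test with JQ1 in either genotype (0.17 and -0.14).

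The next falls were of similar size in both genotypes. LINC01198 (chr13:46455132-46515958, minus strand) went with JQ1 from 3.96, 3.29 and 2.80 CPM to 0.345, 0.520 and 0.858 CPM in wild type and from 3.01, 3.78 and 2.60 to 0.495, 0.365 and 0.601 CPM in knockout, with log2 fold changes of -2.52 (SE 0.27, adjusted p = 6.5e-06) and -2.65 (SE 0.29, adjusted p = 5.6e-06). LINC02289 (chr14:77069180-77076344, minus strand) went from 2.12, 2.44 and 2.17 to 0.377, 0.445 and 0.503 CPM in wild type and from 1.76, 2.13 and 2.53 to 0.571, 0.609 and 0.538 CPM in knockout, with -2.33 (SE 0.21, adjusted p = 1.1e-06) and -1.90 (SE 0.21, adjusted p = 6e-06). LINC02085 (chr3:101940859-101997926, plus strand) went from 2.29, 2.30 and 2.39 to 0.660, 0.557 and 0.503 CPM and from 2.28, 1.72 and 2.00 to 0.533, 0.406 and 0.412 CPM, with -2.02 (SE 0.20, adjusted p = 2.2e-06) and -2.14 (SE 0.21, adjusted p = 2.1e-06). For each of the 3, JQ1 and DMSO libraries were apart in both genotypes. All 3 stood under 1 CPM in every JQ1 library and reached the mean through the DMSO libraries, so the rule favoured a difference in them. Beside LINC02289 the coding gene CIPC, a repressor of the circadian factor CLOCK, lay 21753 bases away on the opposite strand and fell too, by smaller amounts (-0.55, adjusted p = 9.4e-05, and -0.63, adjusted p = 2.8e-05). RUBCNL beside LINC01198 and NFKBIZ beside LINC02085 did not pass the test in either genotype.

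LINC01293 (chr2:74940258-74942670, plus strand) fell in both genotypes. Its libraries stood at 7.15, 6.02 and 7.42 CPM in wild-type DMSO and 2.48, 2.34 and 2.28 CPM in wild-type JQ1. The knockout held 5.13, 5.12 and 4.74 CPM in DMSO and 0.952, 1.18 and 0.570 CPM in JQ1, the lowest group. The log2 fold changes were -1.54 (SE 0.16, adjusted p = 5.5e-06) and -2.50 (SE 0.19, adjusted p = 2e-07), and the test of their difference did not pass, at -0.96 (SE 0.26, adjusted p = 0.25). LINC01291 lies 1840 bases from it on the same strand and had log2 fold changes of -1.68 and -2.00 (adjusted p = 2.7e-06 and 1.3e-06). Their nearest coding gene POLE4, a subunit of DNA polymerase epsilon, rose by 0.85 (adjusted p = 0.00065) in wild type and by 0.94 (adjusted p = 0.00028) in knockout.

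LINC00704, also known as MANCR, the mitotically associated long noncoding RNA, and LINC00705 overlap on opposite strands of chromosome 10. LINC00704 had log2 fold changes of -1.44 (SE 0.16, adjusted p = 6.5e-06) and -1.84 (SE 0.16, adjusted p = 5.2e-07) with JQ1. LINC00705 had -1.72 (SE 0.33, adjusted p = 0.00089) and -1.66 (SE 0.33, adjusted p = 0.0011), and the reads of the pair may be shared. These genes were chosen after their values were seen, because they form a pair. In all, 7 pairs of members lay within 100 kb of each other, and in 2 of them both members were called lower in both genotypes, the pairs just described.

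Among the RNAs that rose with JQ1, LINC01419 (chr8:83403758-83408900, plus strand) had the largest change in wild type. It stood at 95.9, 96.3 and 96.9 CPM in wild-type DMSO and at 324, 352 and 357 CPM in wild-type JQ1. The knockout held 23.1, 22.9 and 23.1 CPM in DMSO and 54.1, 53.4 and 41.1 CPM in JQ1. The 4 groups did not overlap, and the lowest wild-type library lay above the highest knockout library. JQ1 raised it by 1.84 (SE 0.08, adjusted p = 1.4e-09) in wild type and by 1.10 (SE 0.09, adjusted p = 2.8e-07) in knockout.

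LINC00973 (chr3:98981058-98983096, plus strand) held 1.79, 1.17 and 1.70 CPM in wild-type DMSO and 3.71, 3.67 and 4.23 CPM in wild-type JQ1, and 1.54, 1.61 and 2.14 CPM and 3.85, 3.49 and 3.01 CPM in the same groups of the knockout. The JQ1 libraries lay above the DMSO libraries in both genotypes. Its log2 fold changes were 1.31 (SE 0.18, adjusted p = 6.6e-05) and 0.96 (SE 0.18, adjusted p = 0.00088). DCBLD2, a transmembrane protein whose gene lies 79369 bases away on the opposite strand, rose by nearly the same amounts, 1.27 and 0.96 (adjusted p = 5.4e-10 and 5.3e-09).

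LINC01060 (chr4:188400736-188681051, plus strand) rose from 7.69, 7.01 and 8.22 CPM to 15.1, 14.0 and 14.2 CPM in wild type and from 10.7, 11.02 and 10.3 to 18.7, 21.8 and 17.3 CPM in knockout, by 0.91 (SE 0.10, adjusted p = 7e-06) and 0.85 (SE 0.10, adjusted p = 9.1e-06). LINC00355 (chr13:63851197-64076044, minus strand) rose from 14.8, 13.0 and 13.9 to 22.3, 23.3 and 26.1 CPM and from 14.2, 15.1 and 15.6 to 22.7, 21.5 and 20.5 CPM, by 0.78 (SE 0.08, adjusted p = 6.3e-06) and 0.53 (SE 0.09, adjusted p = 0.00021). LINC00511 (chr17:72290091-72640472, minus strand), an RNA studied for its high level in several cancers, rose from 32.0, 32.8 and 32.1 to 53.8, 52.6 and 54.0 CPM and from 34.6, 35.7 and 34.97 to 63.2, 60.6 and 73.7 CPM, by 0.73 (SE 0.07, adjusted p = 2e-06) and 0.91 (SE 0.07, adjusted p = 1.9e-07). JQ1 and DMSO libraries were apart for all 3 in both genotypes. SLC39A11, a zinc transporter whose gene lies 5477 bases from LINC00511 on the same strand, rose by 0.57 and 0.62 (adjusted p = 0.00042 and 0.00016).

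**Figure D2:**
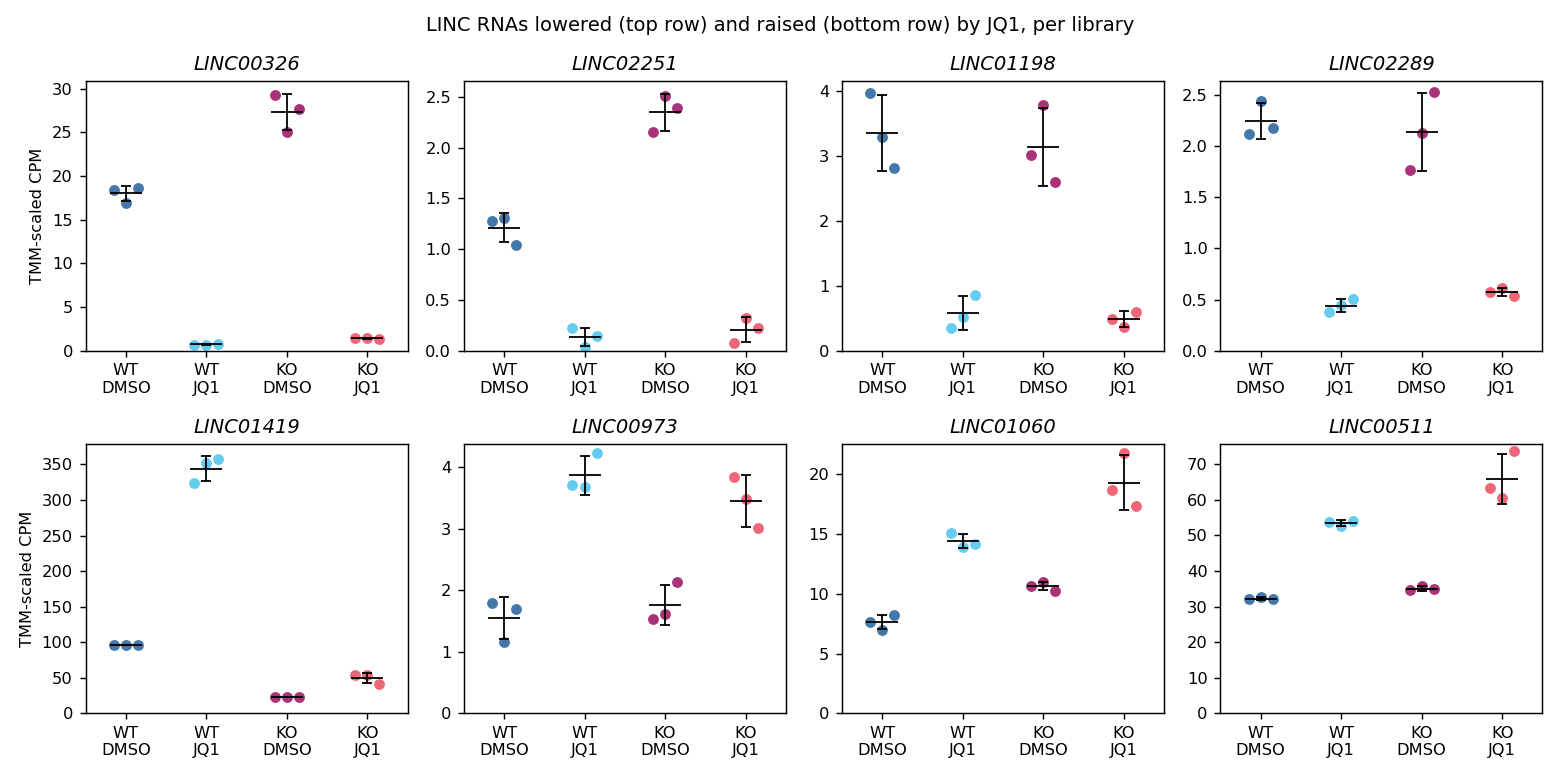
Level in TMM-scaled CPM (y axis, linear, from 0) of 4 LINC RNAs that fell with JQ1 (top row) and 4 that rose (bottom row) in the 4 groups (x axis). Points are the 3 libraries of a group, and bars are the mean and SD. In each panel the JQ1 and DMSO points of a genotype are apart, as for LINC00326, where wild-type JQ1 libraries lie between 0.691 and 0.740 CPM and wild-type DMSO libraries between 17.0 and 18.7 CPM.

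LINC01029 and LINC01239, also among the most counted members, fell by smaller amounts than the RNAs above. LINC01029 (chr18:77971294-77993722, minus strand) held 102, 103 and 97.3 CPM in wild-type DMSO and 70.6, 74.1 and 72.5 CPM after JQ1. The knockout held 135, 130.3 and 131 CPM and 78.4, 81.5 and 83.7 CPM. In each genotype all JQ1 libraries were below all DMSO libraries, with log2 fold changes of -0.48 (SE 0.05, adjusted p = 6.1e-06) and -0.70 (SE 0.05, adjusted p = 1.2e-07). LINC01239 (chr9:22646200-22824213, plus strand) went from 59.8, 59.7 and 56.7 to 35.8, 38.9 and 38.7 CPM in wild type and from 65.0, 61.9 and 64.5 to 34.99, 40.7 and 30.4 CPM in knockout, with -0.63 (SE 0.08, adjusted p = 4.4e-05) and -0.85 (SE 0.09, adjusted p = 2.5e-06). LINC00221 passed the test in wild type (-0.27 (SE 0.08, adjusted p = 0.025)), a call lost in 5 of 18 alternative analyses (adjusted p of up to 0.1), and its value in knockout was -0.18 (SE 0.08, adjusted p = 0.12). LINC02434, next after LINC00221 by level per kb, had -0.43 (SE 0.11, adjusted p = 0.0066) and -0.27 (SE 0.10, adjusted p = 0.057).

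A list of 18 LINC RNAs that have been studied in cancer or gene control held 10 of these genes. Of the 18 names 14 were among the symbols counted, and names were looked up as listed only. With JQ1, 2 of the 10 were higher and 5 lower in wild type, with a median of -0.18, and 2 were higher and 5 lower in knockout, with a median of -0.23. Among genes with at least 1 CPM 22.8% were higher and 18.8% lower in wild type, and 22.2% and 21.5% in knockout. LINC00963 and LINC01116 fell in both genotypes, LINC00963 with log2 fold changes of -0.96 (SE 0.12, adjusted p = 2.9e-05) and -0.87 (SE 0.12, adjusted p = 6.5e-05), and LINC01116 with -0.56 (SE 0.16, adjusted p = 0.015) and -0.65 (SE 0.17, adjusted p = 0.0086). LINC00941, with 2 overlapping gene models, gave -0.45 (SE 0.14, adjusted p = 0.024) and -0.42 (SE 0.14, adjusted p = 0.034). LINC01578, also known as CHASERR, lies beside the chromatin remodeller gene CHD2 and is known to hold down its expression, and it had -0.24 (SE 0.06, adjusted p = 0.0084) and -0.18 (SE 0.06, adjusted p = 0.034). LINC01021, also known as PURPL, a target of the tumour suppressor p53, fell as well, with -0.46 (SE 0.16, adjusted p = 0.035) in wild type and -1.02 (SE 0.15, adjusted p = 8.6e-05) in knockout. Over 18 alternative analyses the wild-type calls of LINC01116, LINC00941, LINC01578 and LINC01021 were lost in 2, 5, 2 and 7, with adjusted p of up to 0.079, 0.14, 0.061 and 0.13. The knockout calls of LINC00941 and LINC01578 were lost in 7 and 8, with adjusted p of up to 0.16 and 0.15.

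The other members of that list moved less or not in both genotypes. LINC00473, known to be induced by cyclic AMP signalling, had 0.17 (SE 0.08, adjusted p = 0.13) in wild type and 0.37 (SE 0.08, adjusted p = 0.0032) in knockout. LINC00662 rose in wild type by 0.30 (SE 0.09, adjusted p = 0.018), and had 0.16 (SE 0.09, adjusted p = 0.2) in knockout. LINC00665 and LINC00460 passed the test with JQ1 in neither genotype, with values of -0.11 and -0.11 for LINC00665 and -0.03 and -0.28 for LINC00460. From a list of 8 LINC symbols whose transcripts have been described to encode a microprotein, 3 were among the symbols counted and 2 were members. An RNA counted under another name would be missed here. LINC00094 had 0.15 (SE 0.07, adjusted p = 0.12) and 0.27 (SE 0.07, adjusted p = 0.0061), and its overlapping partner BRD3 had -0.09 and 0.02, with adjusted p of 0.42 and 0.88. LINC00467 fell in wild type, with -0.61 (SE 0.19, adjusted p = 0.02), and had -0.15 (SE 0.20, adjusted p = 0.61) in knockout. The wild-type calls of LINC00662 and LINC00467 were lost in 4 and 5 of 18 alternative analyses, with adjusted p of up to 0.17 and 0.061. The knockout call of LINC00094 was lost with scaling by library totals alone (0.16, adjusted p = 0.088).

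The JQ1 responses of the genotypes come from separate libraries, so the calls can be set against each other. RNAs lower in both numbered 43, which is 65.2% of the lower calls in wild type and 70.5% of those in knockout. Those higher in both numbered 14, or 73.7% of the higher calls in wild type and 60.9% of those in knockout. No RNA was called in opposite directions, 126 were called in neither genotype, and 194 of the 238 had the same sign in both. Pearson's r between the 2 responses was 0.854 across the 238 RNAs, and Spearman's rank coefficient was 0.712. That is a description across genes, which are not independent and share the count model. The overlaps and coefficients were not computed over all tested genes. Whether the LINC RNAs agreed between genotypes more than other genes was therefore not tested. Most calls made in 1 genotype were not shown to be missing from the other, since the difference itself passed the test for 2 RNAs only.

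**Figure D3:**
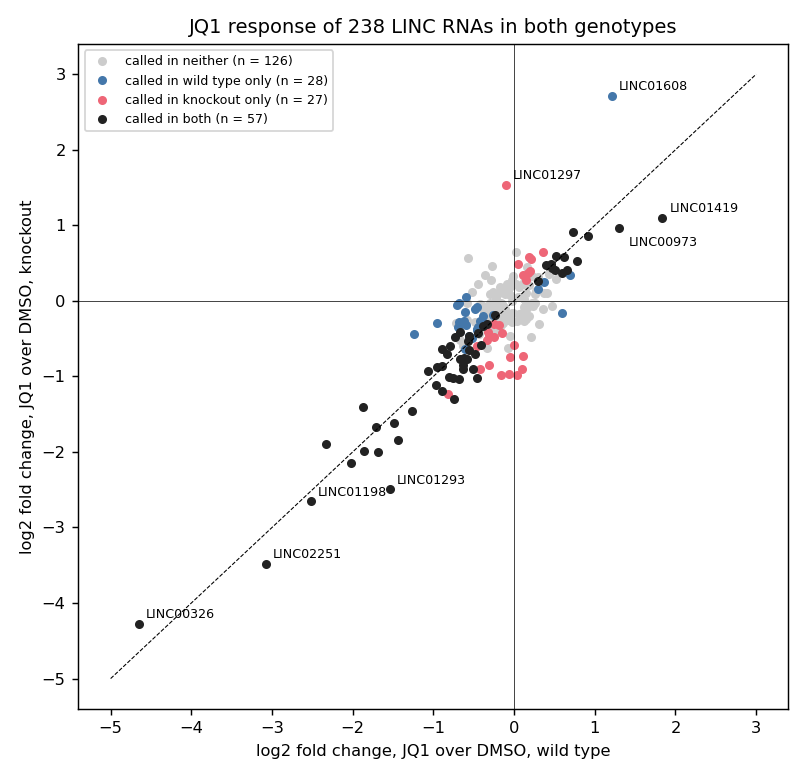
Log2 fold change of JQ1 over DMSO in wild type (x axis) and in knockout (y axis) for each of the 238 LINC RNAs, coloured by the genotypes in which the adjusted p was under 0.05. The dashed line marks equal values. The 57 RNAs called in both lie where both values have the same sign, LINC01297 lies above the line at -0.10 and 1.54, and the knockout value of LINC01608 rests on 1 count in DMSO and 8 in JQ1.

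Promoter sequences of RefSeq on GRCh38.p14, 250 bases before to 50 bases after the start, were matched for 134 of the 238 RNAs. They are shown for 3 RNAs that fell and 3 that rose in both genotypes, since these members moved together, and they were picked after the responses were known. Capitals mark a match on either strand to one of 7 motifs. For AP-1 the loose form TGANTCA was searched, where N is any base. The others were the cyclic AMP response element TGACGTCA, the E-box motif CACGTG, the ETS-family motif CCGGAAG and the SOX-family motif ACAAAG. Also searched were the NF-Y motif CCAAT and the TATA-box motif TATAAA. No motif contains another. The falling RNAs are LINC02251 at chr15:98002788-98003087 (plus strand), LINC02289 at chr14:77076142-77076441 (minus strand) and LINC00704 at chr10:4678021-4678320 (minus strand).
LINC02251: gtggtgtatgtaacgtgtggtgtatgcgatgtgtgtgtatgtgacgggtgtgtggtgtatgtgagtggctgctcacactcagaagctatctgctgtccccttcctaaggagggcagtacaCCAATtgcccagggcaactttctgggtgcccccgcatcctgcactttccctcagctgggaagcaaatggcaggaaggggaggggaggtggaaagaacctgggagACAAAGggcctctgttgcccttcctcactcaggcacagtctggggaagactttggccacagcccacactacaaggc
LINC02289: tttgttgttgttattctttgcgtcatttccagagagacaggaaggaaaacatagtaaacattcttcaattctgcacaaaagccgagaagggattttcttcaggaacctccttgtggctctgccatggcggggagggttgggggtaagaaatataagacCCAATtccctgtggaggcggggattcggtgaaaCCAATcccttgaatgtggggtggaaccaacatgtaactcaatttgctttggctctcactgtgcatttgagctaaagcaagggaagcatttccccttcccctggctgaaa
LINC00704: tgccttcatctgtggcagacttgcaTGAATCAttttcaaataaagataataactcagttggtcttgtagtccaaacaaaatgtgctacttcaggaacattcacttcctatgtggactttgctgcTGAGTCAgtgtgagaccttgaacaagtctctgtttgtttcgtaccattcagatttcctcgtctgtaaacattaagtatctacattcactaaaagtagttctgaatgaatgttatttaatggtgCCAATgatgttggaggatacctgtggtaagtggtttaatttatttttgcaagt
The rising RNAs are LINC00511 at chr17:72640423-72640722 (minus strand), LINC00973 at chr3:98980805-98981104 (plus strand) and LINC00355 at chr13:64075962-64076261 (minus strand).
LINC00511: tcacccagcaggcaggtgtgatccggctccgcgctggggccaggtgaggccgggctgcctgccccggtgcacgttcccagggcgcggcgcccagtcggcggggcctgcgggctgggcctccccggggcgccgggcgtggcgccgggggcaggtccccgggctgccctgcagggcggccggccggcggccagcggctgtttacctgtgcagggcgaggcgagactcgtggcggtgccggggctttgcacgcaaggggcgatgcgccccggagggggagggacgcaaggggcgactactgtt
LINC00973: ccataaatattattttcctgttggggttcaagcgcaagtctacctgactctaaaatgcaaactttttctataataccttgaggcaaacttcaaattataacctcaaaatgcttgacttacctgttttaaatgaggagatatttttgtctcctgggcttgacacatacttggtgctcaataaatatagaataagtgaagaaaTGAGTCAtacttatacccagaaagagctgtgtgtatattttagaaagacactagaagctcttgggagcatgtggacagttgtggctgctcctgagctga
LINC00355: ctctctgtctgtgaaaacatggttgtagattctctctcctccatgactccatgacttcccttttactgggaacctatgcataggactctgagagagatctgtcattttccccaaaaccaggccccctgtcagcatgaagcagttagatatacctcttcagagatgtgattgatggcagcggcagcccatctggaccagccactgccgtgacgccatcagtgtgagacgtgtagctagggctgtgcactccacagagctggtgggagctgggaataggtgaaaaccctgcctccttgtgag
The LINC02251 window holds the SOX and CCAAT letters, that of LINC02289 holds CCAAT at 2 places, that of LINC00704 holds the AP-1 letters at 2 places and CCAAT at 1, and that of LINC00973 holds the AP-1 letters at 1 place. The windows of LINC00511 and LINC00355 hold none of the 7.

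The promoters of the set differed from each other in base composition. The GC content was 78% for LINC00511, 36.7% for LINC00704 and 37.3% for LINC00973, and the median of the 134 was 51.7%, against 58.7% for all 35116 promoters in the table. AP-1 letters stood in 15.7% of the 134 promoters and in 7.71% of all promoters, CCAAT in 46.3% and 34.6%, TATA letters in 17.2% and 11.5%, and SOX letters in 18.7% and 16.1%. ETS letters stood in 11.2% and 10.3%, the E-box in 6.72% and 7.26%, and the cyclic AMP response element in 1.49% and 1.85%. Of the 43 RNAs that fell in both genotypes 21 had a promoter, of which 8 held the SOX letters, 7 CCAAT, 4 the TATA letters, 3 the AP-1 letters, 2 the E-box, 1 the ETS letters and 0 the cyclic AMP response element. Of the 14 that rose in both, 11 had a promoter, of which 6 held CCAAT, 0 the cyclic AMP response element and 1 each of the other 5. These are counts of letters, not of bound sites. Each of the 134 RNAs has 1 window, at the RefSeq start nearest to its GENCODE start. The 35116 can hold several starts of a gene, so the shares are over unlike units. Some windows lay far from the GENCODE start, by 134013 bases for LINC02133 and 133724 for LINC02531. Those shown above lay at most 153 bases from it.

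The responses of the LINC RNAs were set beside those of their nearest coding gene, since some RNAs of this class act on their neighbours or share regulatory sequence with them. Within 100 kb 143 RNAs had a tested coding neighbour, 30 of them overlapping it, and the neighbours were 138 distinct genes. In wild type the 143 RNAs had a median log2 fold change of -0.18 with JQ1, and their neighbours had 0.09. The test called 59 of all 143 neighbours in wild type, and 64 of them in the knockout. Of the 30 RNAs of this group that fell in wild type, 7 had a neighbour that fell, 5 a neighbour that rose and 18 a neighbour that did not pass the test. Of the 12 that rose, 5 had a neighbour that rose, 2 a neighbour that fell and 5 a neighbour not called. Across the 143 pairs Pearson's r was 0.0624 in wild type and 0.0349 in knockout, as a description over pairs measured in the same libraries. In knockout cells 34 RNAs of the group fell, and their neighbours fell in 7 cases, rose in 8 and were not called in 19. Of all tested genes with at least 1 CPM, 41.5% were called in wild type, 18.8% lower and 22.8% higher. In knockout 43.7% were called, 21.5% lower and 22.2% higher. Whether the neighbours departed from these shares was not tested.

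**Figure D4:**
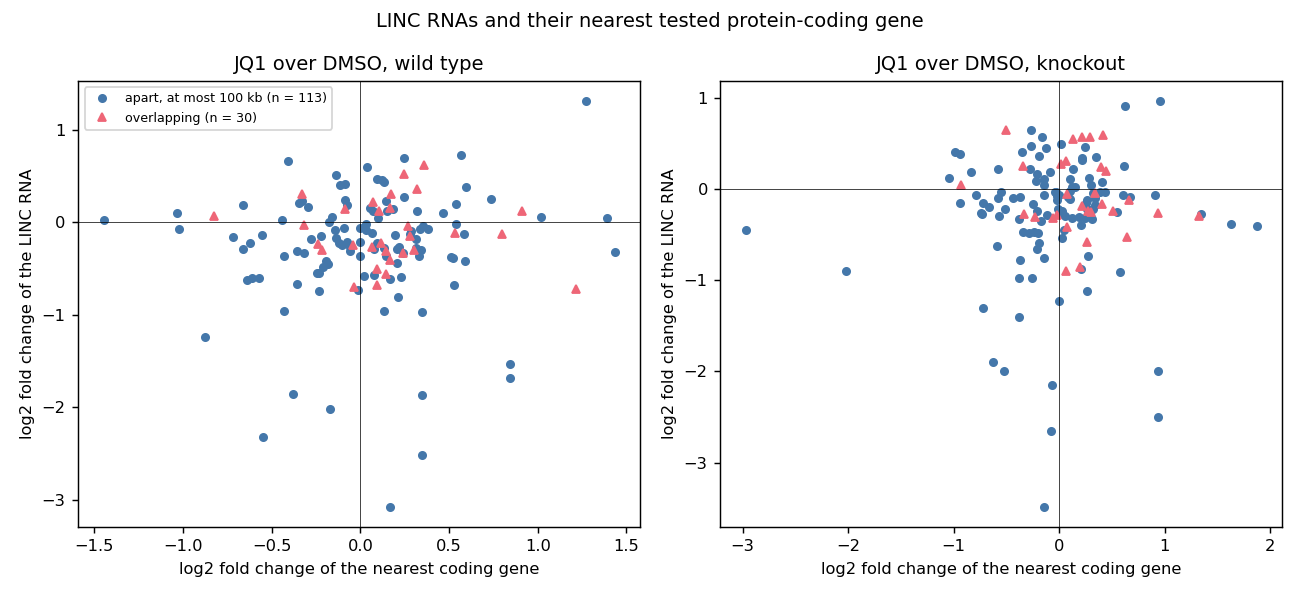
Log2 fold change of JQ1 over DMSO of the nearest tested protein-coding gene (x axis) and of the LINC RNA (y axis) for 143 RNAs, in wild type and knockout. Circles are pairs that lie apart by at most 100 kb and triangles are overlapping pairs. The points form no slope, with r of 0.0624 and 0.0349, and the RNAs that fell most have neighbours on both sides of 0.

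Between knockout and wild-type cells few of these RNAs differed. In DMSO 19 of 238 passed the test, 11 higher and 8 lower in the knockout, or 7.98% against 7.92% of all tested genes and 9.67% of those that reached 1 CPM. By direction, 4.62% were higher and 3.36% lower, against 3.47% and 4.44% of all tested genes and 4.65% and 5.02% of those that reached 1 CPM. In JQ1 23 passed, 8 higher and 15 lower, or 9.66% against 8.57% and 10.8%. There 3.36% were higher and 6.3% lower, against 3.01% and 5.56% of all tested genes and 3.97% and 6.88% of those that reached 1 CPM. These shares lie near those of other genes. Members with a mean under 1 CPM in at least 1 group made up 5 of the DMSO calls, 1 lower and 4 higher. They made up 7 of the JQ1 calls, 4 lower and 3 higher. Such members entered the set through groups in which they were higher, so the rule could favour a difference in them. The median differences of the set were -0.04 in DMSO and -0.01 in JQ1, and those of all tested genes were -0.00 and -0.00. Without replicate 3 of knockout JQ1 the counts were 23 in DMSO and 19 in JQ1. Leaving out 1 library at a time gave 7 to 12 higher and 5 to 11 lower calls in DMSO and 5 to 8 higher and 7 to 13 lower calls in JQ1. The DMSO count was 12 without replicate 1 of wild-type DMSO or without replicate 1 of knockout DMSO, and the JQ1 count was 13 without replicate 2 or without replicate 3 of wild-type JQ1.

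The comparisons in DMSO and in JQ1 rest on separate libraries. RNAs lower in both numbered 4, which made 50% of the RNAs lower in DMSO and 26.7% of those lower in JQ1, and they were LINC01419, LINC01608, LINC02241 and LINC02484. Those higher in both numbered 6, which made 54.5% of the RNAs higher in DMSO and 75% of those higher in JQ1, and they were LINC00326, LINC01060, LINC01297, LINC01844, LINC02199 and LINC02434. None was called in opposite directions, and 206 were called in neither treatment. These overlaps, too, were not counted over all tested genes.

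LINC01608 (chr8:110937690-111027433, minus strand) was nearly absent from the knockout. It reached the mean of 1 CPM through the wild-type libraries, so the rule favoured a difference in it. Its rounded counts in the knockout DMSO libraries were 1, 0 and 0, a sum of 1, where the wild-type DMSO libraries held 231 counts together. The ratio of wild type to knockout was 209, with an exact 95% interval of 37.1 to 8286 that covers counting error only. With JQ1 the knockout libraries held 8 counts and the wild-type libraries 511, a ratio of 56.9 with an interval of 28.7 to 133. In wild-type libraries it stood at 2.32, 2.55 and 2.23 CPM in DMSO and 5.15, 4.75 and 6.48 CPM in JQ1, with 1.21 (SE 0.23, adjusted p = 0.00082) on the log2 scale. The adjusted p of the knockout difference was 1e-06 in DMSO and 1.6e-07 in JQ1. LINC01609, the next member on the same strand 71528 bases away, was present in both genotypes, with 1.88, 1.31 and 1.90 CPM in wild-type DMSO and 1.86, 1.99 and 1.86 CPM in knockout DMSO, and its difference was 0.16 (SE 0.20, adjusted p = 0.75).

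LINC01419, on the same chromosome as LINC01608, was lower in the knockout, with log2 differences of -2.06 (SE 0.09, adjusted p = 1.8e-09) in DMSO and -2.80 (SE 0.09, adjusted p = 3.3e-11) in JQ1. LINC02484 (chr4:34120894-34269747, minus strand) held 6.47, 6.87 and 6.46 CPM in wild-type DMSO and 1.67, 1.72 and 1.47 CPM in knockout DMSO. With JQ1 it held 8.73, 9.57 and 11.5 CPM in wild type and 1.71, 1.62 and 1.08 CPM in knockout. All knockout libraries lay below all wild-type ones, with differences of -2.02 (SE 0.16, adjusted p = 1.7e-06) and -2.77 (SE 0.17, adjusted p = 7.3e-08). LINC02241 (chr5:20611840-20937691, plus strand) stood at 9.69, 9.56 and 8.22 CPM against 5.55, 6.04 and 6.21 CPM in DMSO and at 7.16, 8.24 and 8.05 against 6.66, 5.32 and 5.13 CPM in JQ1. Its differences were -0.62 (SE 0.12, adjusted p = 0.004) and -0.46 (SE 0.12, adjusted p = 0.032).

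LINC01363 (chr1:167175917-167195792, minus strand) stood at 3.64, 4.99 and 3.63 CPM in wild-type DMSO and 1.38, 1.79 and 1.72 CPM in knockout DMSO, without overlap, a difference of -1.32 (SE 0.19, adjusted p = 0.00049). In JQ1 it held 1.98, 1.97 and 2.31 CPM in wild type and 1.49, 1.54 and 0.981 CPM in knockout, and the difference of -0.66 (SE 0.21, adjusted p = 0.071) did not pass. POU2F1, the gene of the transcription factor OCT1, lies 25037 bases away on the opposite strand and had -0.24 (adjusted p = 0.1) in DMSO and -0.37 (adjusted p = 0.011) in JQ1. LINC00461, the host of a copy of microRNA miR-9, was lower in the knockout under JQ1, with -1.08 (SE 0.31, adjusted p = 0.047), and its libraries held 4.93, 3.34 and 3.40 CPM in wild type and 1.75, 0.812 and 2.85 CPM in knockout. Its neighbour MEF2C, a transcription factor gene 26076 bases away on the same strand, was lower as well, with -0.69 in DMSO and -0.69 in JQ1 (adjusted p = 0.0014 and 0.0018). LINC01293 was lower in the knockout under JQ1, with -1.42 (SE 0.21, adjusted p = 0.00042), and did not pass in DMSO (-0.46 (SE 0.15, adjusted p = 0.091)).

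LINC01297 had the largest rise in the knockout under JQ1. It stood at 30.2, 35.9 and 37.3 CPM in wild-type DMSO and at 27.0, 32.6 and 36.7 CPM in wild-type JQ1, and the 2 groups overlapped. The knockout held 134, 129 and 127 CPM in DMSO and 491, 381 and 259 CPM in JQ1, above every wild-type library, and the JQ1 values were widely spread, with replicate 3 lowest. The knockout difference was 1.91 (SE 0.18, adjusted p = 6.5e-06) in DMSO and 3.55 (SE 0.19, adjusted p = 1.8e-08) in JQ1. Because the symbol covers gene models on 2 chromosomes, the locus behind these counts cannot be named.

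LINC01844 (chr5:142745600-142760998, plus strand) held 1.07, 1.17 and 0.880 CPM in wild-type DMSO and 3.49, 4.36 and 4.11 CPM in knockout DMSO, and 0.785, 0.594 and 0.917 against 2.32, 2.03 and 2.03 CPM in JQ1. The genotypes did not overlap in either treatment, with differences of 1.94 (SE 0.18, adjusted p = 6.5e-06) and 1.45 (SE 0.20, adjusted p = 0.00024). LINC01844 reached the mean of 1 CPM through the knockout libraries, so the rule favoured a difference in it. LINC02199 (chr5:8839732-8881525, plus strand) held 2.50, 2.73 and 3.19 against 6.99, 6.87 and 6.92 CPM in DMSO and 1.54, 0.891 and 2.04 against 3.05, 2.92 and 3.07 CPM in JQ1. Its differences were 1.30 (SE 0.19, adjusted p = 0.0004) and 0.99 (SE 0.21, adjusted p = 0.0078), and its log2 fold changes with JQ1 were -0.89 and -1.20. LINC01844 and LINC02199 are both on chromosome 5, far apart.

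LINC01021, the p53-regulated PURPL, stood at 3.49, 3.19 and 2.91 CPM in wild-type DMSO and 6.60, 5.97 and 5.23 CPM in knockout DMSO, without overlap, and was higher in the knockout by 0.89 (SE 0.15, adjusted p = 0.0012). In JQ1 it stood at 2.32, 2.34 and 2.31 CPM and 3.27, 3.21 and 2.34 CPM, and the difference of 0.33 (SE 0.16, adjusted p = 0.26) did not pass. LINC02475 (chr4:44016861-44022063, plus strand) was higher by 1.16 (SE 0.28, adjusted p = 0.018) in DMSO and had 0.96 (SE 0.36, adjusted p = 0.12) in JQ1. LINC02251 was higher in DMSO by 0.96 (SE 0.27, adjusted p = 0.042) and LINC01205 (chr3:109409990-109495167, plus strand) in JQ1 by 0.94 (SE 0.24, adjusted p = 0.026). Both lay just inside the limit of the rule, at means without scaling of 1.00 and 1.02 CPM, so the rule favoured a difference in them. The coding neighbour of LINC02251, ARRDC4, was higher in the knockout in DMSO as well, by 0.64 (adjusted p = 0.0014). Most called RNAs had no such neighbour. Among the 143 RNAs with a tested coding neighbour, 5 were lower in the knockout in DMSO, all 5 with a neighbour not called. Of the 3 higher ones, 1 had a higher neighbour and 2 a neighbour not called. In JQ1 8 were lower, 1 with a lower neighbour and 7 with a neighbour not called. Of the 3 higher there, 1 had a lower neighbour and 2 a neighbour not called. Over 18 alternative analyses the knockout calls in DMSO of LINC02251, LINC02475 and LINC02434 were lost in 9, 4 and 9, with adjusted p of up to 0.15, 0.074 and 0.13. Those in JQ1 of LINC02241, LINC00461, LINC01205 and LINC01060 were lost in 8, 11, 7 and 4, with adjusted p of up to 0.12, 0.18, 0.12 and 0.063. That of LINC02199 was lost when only the compared groups were fitted (1.00, adjusted p = 0.06).

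**Figure D5:**
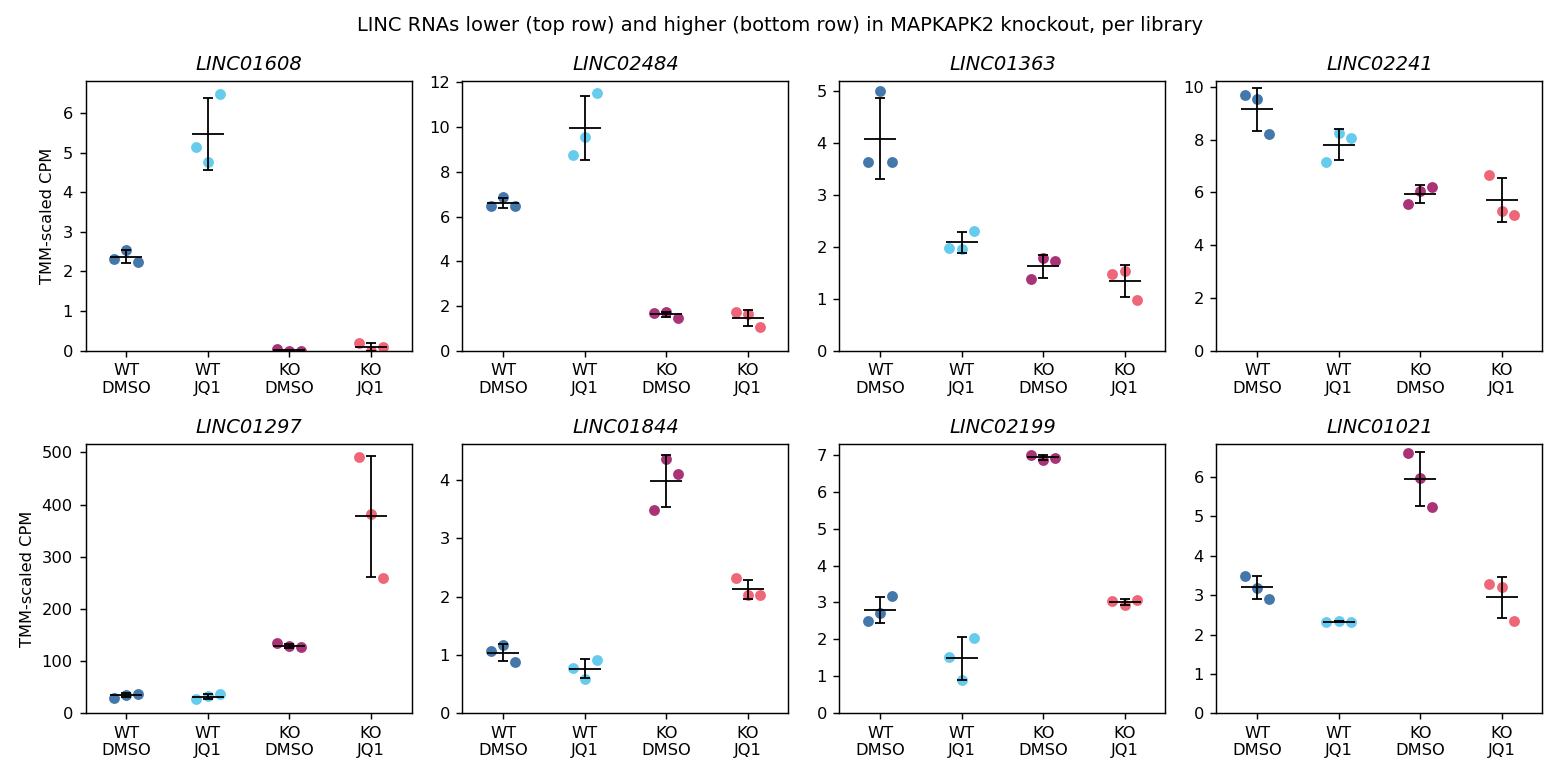
Level in TMM-scaled CPM (y axis, linear, from 0) of 4 LINC RNAs that were lower in the MAPKAPK2 knockout in DMSO (top row) and 4 that were higher (bottom row) in the 4 groups (x axis). Points are the 3 libraries of a group, and bars are the mean and SD. LINC01608 lies at or near 0 in all 6 knockout libraries, and LINC01297 lies between 127 and 491 CPM in them, against 27.0 to 37.3 CPM in wild type.

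MAPKAPK2 itself lies on chromosome 1, where 29 of the LINC RNAs lie. LINC00467 was the sole member between MAPKAPK2 and the end of the long arm, and it held 4.32, 4.001 and 4.18 CPM in wild-type DMSO and 2.08, 3.98 and 2.60 CPM in knockout DMSO. Its differences between the genotypes were -0.53 (SE 0.19, adjusted p = 0.11) in DMSO and -0.07 (SE 0.20, adjusted p = 0.89) in JQ1. Neither passed the test.

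The difference of the JQ1 response between the genotypes passed the test for 2 of the 238 RNAs, or 0.84%, and for 0.134% of all tested genes and 0.175% of those that reached 1 CPM, and 23 members had an unadjusted p under 0.05, or 9.66%, against 8.37% of all tested genes. LINC01297 was the RNA with a larger response in the knockout: its log2 fold change with JQ1 was -0.10 (SE 0.18, adjusted p = 0.71) in wild type and 1.54 (SE 0.17, adjusted p = 6.6e-06) in knockout, a difference of 1.64 (SE 0.25, adjusted p = 0.019). LINC01419 was the one with a smaller response in the knockout, 1.10 against 1.84, a difference of -0.74 (SE 0.12, adjusted p = 0.023). Without replicate 3 of knockout JQ1 these differences were 1.85 for LINC01297 and -0.62 for LINC01419. The call of LINC01297 was lost in 6 of 17 alternative analyses, with an adjusted p of up to 0.082, and that of LINC01419 in 11 of 17, with an adjusted p of up to 0.11. LINC01297 lost it without replicate 2 or 3 of wild-type DMSO, replicate 1 or 2 of wild-type JQ1, or replicate 2 or 3 of knockout DMSO. LINC01419 lost it when any 1 library of those 3 groups was left out, with scaling by library totals and with a replicate block.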

How the data were processed

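RNA from 12 A375 libraries, 3 per group of genotype and treatment, was quantified per gene symbol. The authors deposited estimated counts, which need not be whole. The submitters' processing notes name Trim Galore, cutadapt, FastQC, MultiQC, kallisto, DESeq2 and the build GRCh38.p10, without versions, roles or order, and the annotation is not given in the sources used here. A second deposited table of normalized values was not used.

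Columns were mapped to samples by name. Estimated counts were rounded to whole numbers, the design having assumed this unit, and filterByExpr of edgeR took out genes with low counts. All libraries entered 1 model with a term per group and TMM scaling, tested in R 4.3.3 by the quasi-likelihood F test of edgeR 4.0.16 with limma 3.58.1 at an adjusted p of 0.05 over all 21698 tested genes. Fold changes used a prior count of 0.125. Standard errors (SE) were taken as the size of the log2 fold change over the root of F. The fit was checked on simulated counts. Totals of 25316899 to 34594295 counts per library leave a gene at 1 CPM with few counts, so low members have wide errors.

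Positions came from GENCODE version 29 by symbol, older symbol or RefSeq synonym, and promoters from RefSeq on GRCh38.p14. The authors' GRCh38.p10 and both references share 1 assembly.

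Named genes were, per contrast, the 5 largest rises and 5 largest falls among calls whose replicates do not overlap; every call and the 3 smallest p for the difference of responses; the 10 highest mean CPM and 5 highest per kb; and lists of studied and microprotein RNAs. Other names were chosen after their values were seen. The members, lists and rules were chosen with earlier results of these data known. Alternatives were DESeq2 1.42.0, other scalings and filters, a stricter threshold, fits of only the groups compared, a replicate block and leaving out each library.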

Additional observations from a re-analysis of the deposited data

Results flagged for a closer look

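LINC01297 stood out because its response to JQ1 differed between the genotypes: the log2 fold change was -0.10 in wild type and 1.54 in knockout, a difference of 1.64 (edgeR's quasi-likelihood test, adjusted p = 0.019). The 3 knockout JQ1 libraries at 491, 381 and 259 CPM lay above the 3 knockout DMSO libraries at 134, 129 and 127 CPM, while the wild-type groups overlapped. Its symbol covers gene models on 2 chromosomes.

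LINC01419 stood out for the same kind of difference in the other direction: JQ1 raised it by 1.84 in wild type and by 1.10 in knockout, a difference of -0.74 (edgeR's quasi-likelihood test, adjusted p = 0.023). In both genotypes all 3 JQ1 libraries lay above all 3 DMSO libraries.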

How the results depend on the processing

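Members called, out of 238, numbered 85 and 84 for JQ1 in wild type and knockout, 19 and 23 for knockout against wild type in DMSO and JQ1, and 2 for the difference of the JQ1 responses. At an adjusted p of 0.01 they numbered 51, 55, 12, 10 and, for the difference, 0, where 23 members had an unadjusted edgeR p under 0.05 and DESeq2 called 2 at 0.05. Fitting only the groups compared called 9 for knockout against wild type in JQ1. The difference was called for 1 member with library totals alone. Leaving out 1 library at a time gave 64 to 95, 67 to 84, 12 to 23, 13 to 21 and 0 to 2 calls. The causes of these moves were not tested. Of 84 values called for single named members, 61 were called in every alternative and none changed sign, with 124 single alternatives that lost a call.

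With the replicate number as a block the calls were 81, 78, 16, 18 and 1. Same-numbered libraries did not deviate together (correlations of -0.115 to 0.0786), so the numbers were not taken as pairs.

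Depth limits the members near 1 CPM, which hold few counts in groups where they are lower.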

Other observations

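Chromosome 2 held 14 of the LINC RNAs, a group noticed after its values were seen. With JQ1 9 of the 14 were lower in wild type and 11 in knockout, with 0 higher in either, and the medians were -0.56 and -0.62, while the medians of all 238 were -0.23 and -0.20. Lower calls made up 27.7% and 25.6% of all 238 and 16.2% and 17.8% of all tested genes. LINC01291, LINC01293 and LINC01123 fell most there, with log2 fold changes in wild type of -1.68, -1.54 and -1.87 and in knockout of -2.00, -2.50 and -1.40. Chromosome 18 had a like split, with 5 of 10 lower in wild type, 6 in knockout and 0 higher, and medians of -0.36 and -0.58. So had chromosome 15, with 3 of 4 lower and 0 higher in each genotype, and medians of -0.43 and -0.47. On chromosome 17, 3 of 9 were higher and 0 lower in wild type, with a median of -0.26. In knockout 2 were higher and 0 lower there, with a median of 0.20. These counts were made by edgeR's quasi-likelihood test at an adjusted p of 0.05, and a difference between chromosomes was not tested.

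A list of 38 long noncoding RNAs with names of other kinds, such as MALAT1 and NEAT1, had 31 tested genes, none of them in the LINC set. With JQ1 7 rose and 8 fell in wild type, with a median log2 fold change of 0.00, and 10 rose and 8 fell in knockout, with a median of -0.04, where 16.9% of all tested genes were higher and 16.2% lower in wild type, and 16.7% and 17.8% in knockout. Between knockout and wild type 3 were lower and 0 higher in DMSO, and 5 were lower and 2 higher in JQ1, where 4.44% of all tested genes were lower and 3.47% higher in DMSO, and 5.56% and 3.01% in JQ1.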
